A study of Homo sapiens with 6 samples.

Results

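The genes described here are a group of ERK pathway kinases and feedback inhibitors: the kinases BRAF and MAPK3, the MAP kinase phosphatases DUSP1, DUSP4, DUSP5 and DUSP6, and the inhibitors SPRY2, SPRY4 and SPRED1. They were taken by symbol from a given list, and all 9 were found among the 17687 genes of the deposited table. RNA-seq was performed on KHM-5M, an anaplastic thyroid cancer cell line, in 3 groups of 2 libraries. The groups were control cells, cells given sodium selenite (SS), and cells given SS together with the antioxidant N-acetylcysteine (SS+NAC). The labels do not name what the control cells were given, and the study names PBS as the control in other assays. Cells given NAC without SS were not analysed here, so the SS+NAC group differs from the control by both agents at once. The libraries held 17645545 and 22016655 expected counts in control, 23493415 and 23810056 in SS, and 23682740 and 22617180 in SS+NAC.

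In the RAS-ERK cascade, active RAS recruits RAF kinases such as BRAF, which phosphorylate MEK, which in turn phosphorylates ERK kinases such as the one encoded by MAPK3. Active ERK raises the transcription of its own inhibitors: dual-specificity phosphatases, which remove the activating phosphates from MAP kinases, and Sprouty and SPRED proteins, which act at the level of RAS and RAF. The cascade is activated by mutation in many thyroid cancers. Messenger RNA levels do not show the phosphorylation of ERK, which was not measured in these libraries.

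The thyroid label was checked against lineage genes. PAX8, a transcription factor of the thyroid follicular lineage, was between 104.0 and 133.8 TPM (a level per transcript length) in the 6 libraries. The other thyroid genes were near or at 0, with thyroglobulin (TG) at no more than 0.30 TPM, the sodium-iodide symporter SLC5A5 at no more than 0.69 TPM, NKX2-1 at no more than 0.20 TPM and DIO1 with no count in 5 libraries and 1 count in the other. FOXE1 and SLC26A4 did not exceed 1.59 TPM, and TSHR and DUOX2 were not analysed here. VIM was at 5743.5 TPM or more and KRT8 at 977.4 TPM or more in each library, whereas CDH1 did not exceed 0.29 TPM. Among leukocyte genes, CD68 was between 70.5 and 109.43 TPM in the 6 libraries, while CD14 did not exceed 2.14 TPM, PTPRC 0.77 TPM and CD3E 0.06 TPM. The cells thus carried PAX8, keratin and vimentin transcripts but few transcripts of differentiated thyroid cells.

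All 9 genes passed the filter on low counts. Per length, the order of the control means was MAPK3 (78.5 ± 0.488 TPM), SPRY2 (56.2 ± 1.44), DUSP1 (45.5 ± 0.453), DUSP6 (21.0 ± 0.283), DUSP5 (19.8 ± 0.0919), SPRED1 (18.0 ± 0.219), SPRY4 (16.5 ± 0.00707), BRAF (6.48 ± 0.283) and DUSP4 (1.24 ± 0.0354), given as mean ± SD with n = 2. No neighbours in this order overlapped in control. In SS the order began with MAPK3 (80.8 ± 3.22 TPM) and DUSP1 (76.5 ± 11.1 TPM), whose libraries overlapped, and DUSP5 (18.1 ± 2.57 TPM) overlapped DUSP6 (17.7 ± 1.65 TPM) as SPRED1 (11.7 ± 1.46 TPM) did SPRY4 (10.9 ± 0.870 TPM). SPRY2 (46.8 ± 5.25 TPM) came after MAPK3 and DUSP1, and BRAF (3.93 ± 0.325 TPM) and DUSP4 (1.13 ± 0.184 TPM) came last. In SS+NAC, MAPK3 (85.3 ± 2.09 TPM) and DUSP1 (75.0 ± 10.0 TPM) again headed the order without overlap, followed by SPRY2 (48.1 ± 5.996 TPM), DUSP5 (28.7 ± 3.25 TPM) and DUSP6 (23.9 ± 2.30 TPM). SPRED1 (17.9 ± 3.04 TPM) and SPRY4 (16.5 ± 1.46 TPM) overlapped, and BRAF (7.58 ± 1.27 TPM) and DUSP4 (2.39 ± 0.0354 TPM) were again the lowest.

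**Figure D1:**
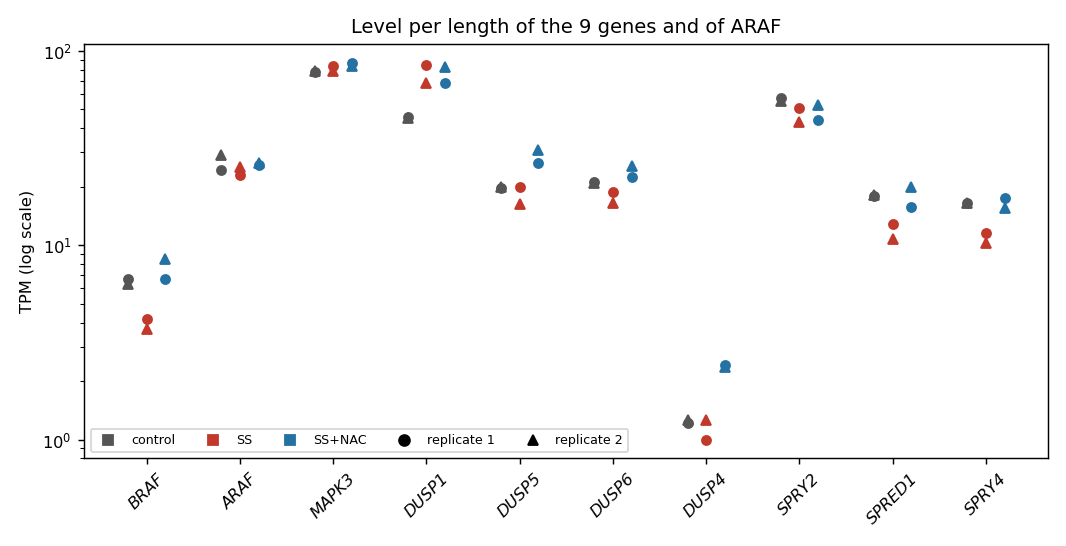
Level per length (TPM, log scale) of the 9 genes and of the BRAF relative ARAF in each library, coloured by group, with circles for replicate 1 and triangles for replicate 2. MAPK3 lies between 78.2 and 86.8 TPM in all libraries, DUSP1 is higher in both treated groups than in control, and DUSP4 lies near the bottom of the axis.

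Changes were tested between groups on counts scaled by library size and TMM (CPM), a scale that compares a gene with itself across libraries. TPM scales the libraries in another way, so the order of the groups for a gene could differ between TPM and CPM. No test was made on TPM. In SS against control, 5 of the 9 genes passed the edgeR quasi-likelihood test at a Benjamini-Hochberg adjusted p of at most 0.05, beside 40.0% of all 14005 genes tested. Of the 9, DUSP1 and MAPK3 were higher in SS, where 18.6% of all genes were called higher, and BRAF, SPRY4 and SPRED1 were lower, where 21.4% were called lower. In SS+NAC against control, 3 of the 9 genes passed, all of them phosphatases and all higher (DUSP1, DUSP4 and DUSP5), beside 2.01% of all genes, with 1.36% called higher and 0.657% called lower. In SS against SS+NAC, 8 of the 9 passed, with DUSP1, MAPK3 and SPRY2 higher in SS and BRAF, DUSP4, DUSP5, SPRY4 and SPRED1 lower, beside 42.7% of all genes, of which 19.6% were higher and 23.1% lower. The 3 comparisons share libraries, so these counts are not independent of each other. The count of 5 was near the background share, the counts of 3 and 8 were above theirs, and no list was tested as a whole. The 9 genes were chosen with earlier results of these data known, so these counts are descriptions. Without control replicate 1 or control replicate 2, 3 of the 9 passed in SS against control (with 3118 and 3628 of all genes), and without SS replicate 2 it was 2 (with 3164). For SS+NAC against control, 1 of the 9 passed without control replicate 1 or control replicate 2 (with 98 and 99 of all genes), and 3 did without SS+NAC replicate 1 (with 1086). For SS against SS+NAC, 3 passed without SS replicate 1 (with 4999 of all genes), 4 without SS replicate 2 (with 3250) and 5 without SS+NAC replicate 2 (with 5043).

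Fold changes in the SS libraries followed transcript length across the whole table. Over 13935 genes with a length, Spearman's rho between effective length and log2 fold change was -0.69 in SS against control and -0.64 in SS against SS+NAC, but -0.04 in SS+NAC against control. Genes are not independent replicates, and these values are descriptions. The 9 genes spread over this range, from MAPK3 (effective length 1870 bases), DUSP1 (2025), SPRY2 (2284) and DUSP5 (2539) through DUSP6 (3419) to SPRY4 (5071), DUSP4 (5707), SPRED1 (7766) and BRAF (9329), and 97.2% of tested genes were shorter than BRAF. With an offset that takes this trend out of each library, 1 of the 9 genes passed in SS against control (DUSP1) beside 9.35% of all genes, 3 in SS+NAC against control (DUSP1, DUSP4 and DUSP5) beside 2.01%, and 1 in SS against SS+NAC (DUSP5) beside 14.4%. The source of the length trend was not tested.

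**Figure D2:**
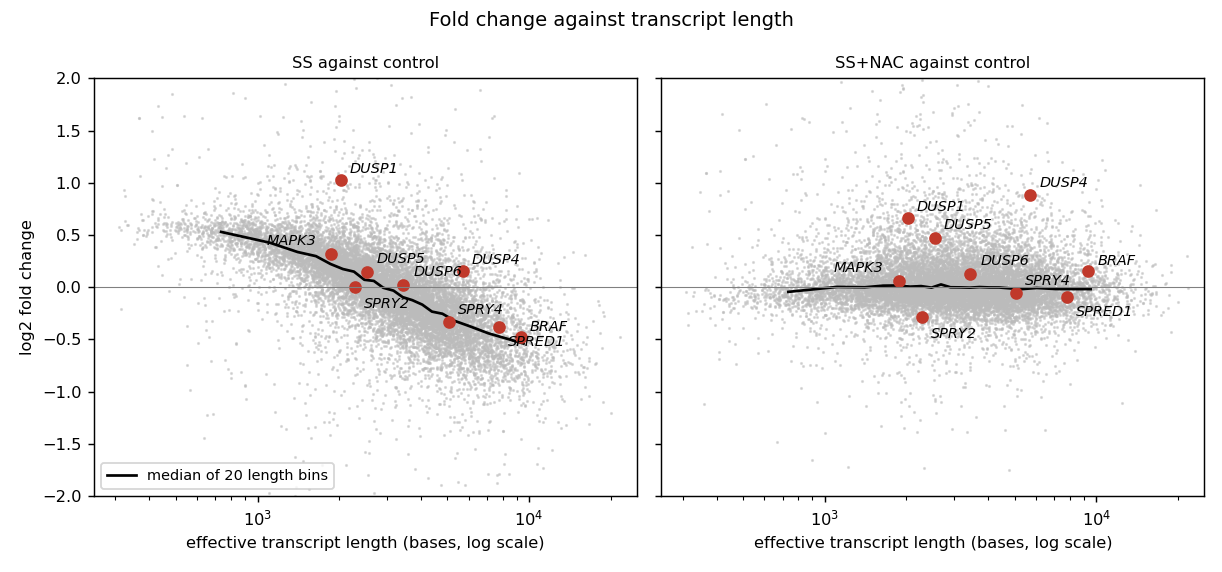
Log2 fold change of each tested gene (grey points) against effective transcript length in bases (log scale), for SS against control (left) and SS+NAC against control (right), with the median of 20 bins by length as a black line and the 9 genes in red. In SS the line falls from short to long transcripts and BRAF, SPRED1, SPRY4 and MAPK3 lie close to it while DUSP1 and DUSP4 lie above it; in SS+NAC the line is nearly flat and DUSP1, DUSP4 and DUSP5 lie above it.

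**Figure D3:**
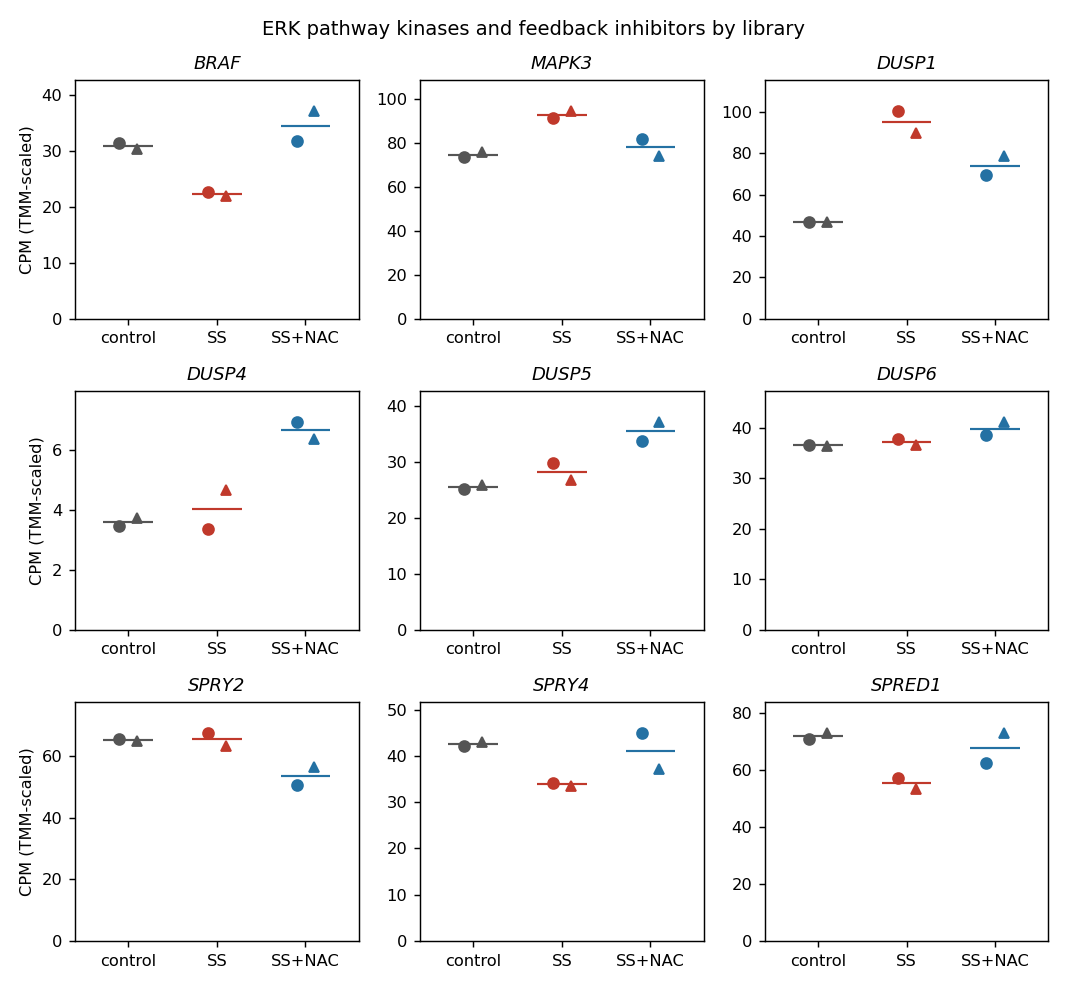
TMM-scaled CPM of the 9 genes in each library, with circles for replicate 1, triangles for replicate 2 and a line at the mean of each group of 2. DUSP1 is higher in both treated groups, DUSP4 and DUSP5 are highest in SS+NAC, and BRAF, SPRY4 and SPRED1 are lowest in SS.

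Among the kinases, BRAF, a RAF kinase that phosphorylates MEK, is encoded on the minus strand of chromosome 7 (gene ID 673, 140713328 to 140924929, GRCh38.p14). Its level was 31.5 and 30.4 CPM in control, 22.6 and 22.0 CPM in SS, and 31.8 and 37.2 CPM in SS+NAC. Both SS libraries were below all others, and the lower SS+NAC library lay just above control. The log2 fold change in SS against control was -0.47 (SE 0.0950, adjusted p = 0.00315, edgeR quasi-likelihood test with Benjamini-Hochberg adjustment), and in SS against SS+NAC it was -0.63 (SE 0.0933, adjusted p = 0.000652). With the length offset these values were 0.05 (adjusted p = 0.758, edgeR) and -0.13 (adjusted p = 0.348, edgeR), so the offset moved the value in SS against control by as much as the value itself. BRAF did not pass in SS+NAC against control, where its log2 fold change was 0.16 (SE 0.0917, adjusted p = 0.424, edgeR).

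MAPK3, which encodes the kinase ERK1, lies on the minus strand of chromosome 16 (gene ID 5595, 30114105 to 30123220). Its level was 73.4 and 75.7 CPM in control, 91.1 and 94.5 CPM in SS, and 81.9 and 74.0 CPM in SS+NAC. On this scale the SS libraries were the highest, while the SS+NAC libraries overlapped those of control. In TPM, which scales the libraries in another way, both SS+NAC libraries (86.77 and 83.82 TPM) were above SS (83.07 and 78.51 TPM). The SS libraries overlapped control (78.19 and 78.88 TPM) on that scale. The log2 fold change was 0.32 in SS against control (SE 0.0770, adjusted p = 0.00845, edgeR) and 0.25 in SS against SS+NAC (SE 0.0763, adjusted p = 0.0221, edgeR). With the length offset it was 0.10 (adjusted p = 0.395, edgeR) and 0.06 (adjusted p = 0.583, edgeR), and the call in SS against control was also lost without control replicate 1 (adjusted p = 0.0923) or SS replicate 2 (0.0679), over a range of 0.00124 to 1 in all alternatives. The call in SS against SS+NAC was kept in 8 of 16 alternatives and in 2 of 6 fits with a library left out, among which the adjusted p reached 0.133. The log2 fold change in SS+NAC against control was 0.06 (adjusted p = 0.727, edgeR).

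ARAF, a RAF kinase related to BRAF, was also measured. Its level was 30.6 and 36.2 CPM in control, 31.9 and 36.9 CPM in SS, and 32.5 and 29.7 CPM in SS+NAC, and the groups overlapped. Per length, ARAF was between 22.94 and 28.98 TPM and BRAF between 3.70 and 8.47 TPM, so BRAF was the rarer transcript of this pair in each library. ARAF did not pass in SS against control (log2 fold change 0.04, adjusted p = 0.803, edgeR), in SS+NAC against control (-0.11, adjusted p = 0.664, edgeR) or in SS against SS+NAC (0.14, adjusted p = 0.304, edgeR).

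Among the phosphatases, DUSP1, an immediate early phosphatase that acts in the nucleus on ERK, p38 and JNK, lies on the minus strand of chromosome 5 (gene ID 1843, 172768096 to 172771195). Its level was 46.6 and 47.0 CPM in control, 100.4 and 89.8 CPM in SS, and 69.5 and 78.5 CPM in SS+NAC. The 3 groups did not overlap: both SS libraries were highest, both SS+NAC libraries lay between, and the control libraries were lowest. DUSP1 rose in SS by a log2 fold change of 1.02 (SE 0.0883, adjusted p = 9.43e-05, edgeR quasi-likelihood test with Benjamini-Hochberg adjustment), which is 2.03-fold, and in SS+NAC by 0.66 (SE 0.0885, adjusted p = 0.00385), which is 1.58-fold. By p it ranked 38 of 14005 genes in SS against control and 59 in SS+NAC against control. With the length offset the log2 fold changes were 0.85 (adjusted p = 0.000947, edgeR) and 0.64 (adjusted p = 0.00701, edgeR).

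The rise of DUSP1 in SS passed the edgeR or DESeq2 threshold in all 16 alternatives, with log2 fold changes from 0.85 to 1.10, and that in SS+NAC passed in 15 of 16 (0.57 to 0.75), the exception being the Bonferroni adjustment (adjusted p = 0.227, range 1.23e-06 to 0.227). The difference between SS and SS+NAC was smaller, at a log2 fold change of 0.36 (SE 0.0854, adjusted p = 0.00659, edgeR), and it was 0.21 with the length offset (adjusted p = 0.147) and 0.28 without SS replicate 1 (adjusted p = 0.0594), over a range of 0.000961 to 1. In TPM, the SS libraries (84.4 and 68.6 TPM) and the SS+NAC libraries (68.0 and 82.1 TPM) overlapped. DUSP1 held 52.0% ± 0.156 of the summed TPM of the 4 phosphatases in control, 67.4% ± 0.802 in SS and 57.7% ± 0.819 in SS+NAC (SD, n = 2).

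The promoter of DUSP1, the one gene of the 9 called in all 3 comparisons, is shown beside that of DUSP6, which passed in none. Both are RefSeq sequences of GRCh38.p14 from 250 bases before the gene's start to 50 bases from it on, on the minus strand, at chr5:172771146-172771445 for DUSP1 and chr12:89352452-89352751 for DUSP6; capitals mark TGACG on either strand, the core of the cyclic AMP response element.
DUSP1: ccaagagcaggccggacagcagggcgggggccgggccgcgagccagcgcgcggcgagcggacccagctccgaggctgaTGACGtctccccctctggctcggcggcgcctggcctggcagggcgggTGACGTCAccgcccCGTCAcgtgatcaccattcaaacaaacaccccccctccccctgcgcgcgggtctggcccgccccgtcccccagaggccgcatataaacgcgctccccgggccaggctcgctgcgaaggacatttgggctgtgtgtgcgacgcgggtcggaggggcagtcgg
DUSP6: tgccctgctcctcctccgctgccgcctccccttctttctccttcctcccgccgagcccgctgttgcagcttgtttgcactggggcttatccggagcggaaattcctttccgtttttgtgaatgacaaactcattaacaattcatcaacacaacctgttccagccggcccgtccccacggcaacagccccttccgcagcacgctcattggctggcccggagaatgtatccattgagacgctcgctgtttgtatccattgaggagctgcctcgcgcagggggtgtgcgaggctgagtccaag
The DUSP1 window held the full element TGACGTCA 1 time, and 1.85% of 35116 promoters of the same length held it. TGACG was found 4 times on both strands together, of which the full element gives 1 on each strand, and 24.6% of promoters held it. The window also held CACGTG (7.26% of promoters) and TGACNNNGC (13.3%), each 1 time and each overlapping a TGACG match, but not TGANTCA (7.71%), CCGGAAG (10.3%), TGATGNAA (3.62%) or the CArG box (1.29%). The DUSP6 window held none of these 8 motifs. An entry was matched by symbol for 7 of the 9 genes, all but DUSP4 and DUSP5. Of these 7, DUSP1 alone held TGACGTCA, but TGACG was found in 4 (also in BRAF, SPRY4 and 1 of the 3 windows of SPRY2), CACGTG also in MAPK3 and TGACNNNGC also in SPRY4. The windows of BRAF and SPRY4 lie inside the gene as given here. A match describes these letters only, and binding was not measured.

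DUSP4, a nuclear phosphatase of ERK and JNK encoded on the minus strand of chromosome 8 (gene ID 1846, 29333064 to 29350684), was the rarest of the 9 transcripts. Its level was 3.45 and 3.71 CPM in control, 3.36 and 4.66 CPM in SS, and 6.92 and 6.36 CPM in SS+NAC, which rested on 62.22 to 167.0 expected counts. Both SS+NAC libraries were above the rest, and the SS libraries lay on either side of control. DUSP4 rose in SS+NAC against control by a log2 fold change of 0.89 (SE 0.183, adjusted p = 0.0372, edgeR), and it was lower in SS than in SS+NAC by -0.73 (SE 0.177, adjusted p = 0.00763, edgeR). In SS against control the value was 0.16 (SE 0.196, adjusted p = 0.559, edgeR), or 0.50 with the length offset (adjusted p = 0.154). The call in SS+NAC against control was lost with DESeq2 (adjusted p = 0.0837), after thinning (0.0517), with the block and offset together (0.0536) and without control replicate 1 (0.206) or control replicate 2 (0.158), over a range of 0.0246 to 1, while the log2 fold change stayed between 0.82 and 0.95. That in SS against SS+NAC was lost with the offset (-0.39, adjusted p = 0.177) and without SS replicate 1 (-0.51, adjusted p = 0.0603), over a range of 0.00697 to 1.

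DUSP5, a nuclear phosphatase specific for ERK, lies on the plus strand of chromosome 10 (gene ID 1847, 110497907 to 110511533). Its level was 25.2 and 25.9 CPM in control, 29.8 and 26.8 CPM in SS, and 33.8 and 37.1 CPM in SS+NAC. Both SS+NAC libraries exceeded all others, and the SS libraries lay above control by less. In TPM, SS (19.95 and 16.32 TPM) overlapped control (19.73 and 19.86 TPM), and SS+NAC was again highest (26.39 and 30.98 TPM). DUSP5 rose in SS+NAC against control by a log2 fold change of 0.47 (SE 0.0894, adjusted p = 0.024, edgeR), and it was lower in SS than in SS+NAC by -0.33 (SE 0.0879, adjusted p = 0.0126, edgeR), or -0.38 with the length offset (adjusted p = 0.0195). In SS against control it was 0.15 (SE 0.0911, adjusted p = 0.227, edgeR). The rise in SS+NAC was not called without control replicate 1 (adjusted p = 0.193) or control replicate 2 (0.153), nor with the block and offset together (0.0564), over a range of 0.00232 to 1. The difference from SS was not called without SS replicate 2 (0.116) or SS+NAC replicate 2 (0.0515), over a range of 0.00336 to 1.

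DUSP6, a cytoplasmic phosphatase specific for ERK and often read as a marker of ERK output, is encoded on the minus strand of chromosome 12 (gene ID 1848, 89347235 to 89352501). Its level was 36.5 CPM in both control libraries, 37.7 and 36.5 CPM in SS, and 38.6 and 41.1 CPM in SS+NAC. The SS libraries overlapped control and the SS+NAC libraries were slightly above both. In TPM, both SS libraries (18.85 and 16.51 TPM) were below control (21.23 and 20.83 TPM). No comparison passed the test, with log2 fold changes of 0.02 in SS against control (SE 0.0773, adjusted p = 0.827, edgeR), 0.13 in SS+NAC against control (adjusted p = 0.443) and -0.10 in SS against SS+NAC (adjusted p = 0.311). In the deposited table each of the 9 genes was given over a wider span than in RefSeq, with 40542 against 3100 bases for DUSP1, 49515 against 5267 for DUSP6, 37049 against 5151 for SPRY2 and 62585 against 13627 for DUSP5, but 17724 against 17621 for DUSP4. DUSP6 and SPRY2 were also given on the plus strand there, while both lie on the minus strand. Which reads were counted over these wider spans was not tested.

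Among the inhibitors upstream of the kinases, SPRY2, a Sprouty protein that dampens receptor tyrosine kinase signalling, lies on the minus strand of chromosome 13 (gene ID 10253, 80335976 to 80341126). Its level was 65.6 and 64.8 CPM in control, 67.4 and 63.4 CPM in SS, and 50.7 and 56.6 CPM in SS+NAC. On this scale the SS+NAC libraries were the lowest and the SS libraries overlapped control. In TPM, SS (50.55 and 43.13 TPM) overlapped SS+NAC (43.90 and 52.38 TPM), and both were below control (57.23 and 55.20 TPM). SPRY2 differed in SS against SS+NAC, with a log2 fold change of 0.29 (SE 0.0800, adjusted p = 0.0152, edgeR), or 0.19 with the length offset (adjusted p = 0.146), and the call was lost without SS replicate 1 (0.0948) or SS+NAC replicate 1 (0.0626), over a range of 0.00387 to 1. Against control, SS+NAC gave -0.28 (adjusted p = 0.119, edgeR), and without SS+NAC replicate 2 it was -0.36 (adjusted p = 0.0415, range 0.0415 to 1). In SS against control it was 0.01 (adjusted p = 0.966, edgeR).

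SPRY4, another Sprouty protein, lies on the minus strand of chromosome 5 (gene ID 81848, 142310430 to 142325021). Its level was 42.1 and 43.0 CPM in control, 34.3 and 33.5 CPM in SS, and 44.9 and 37.2 CPM in SS+NAC. Both SS libraries were below the other 4, and the SS+NAC libraries lay on either side of control. The log2 fold change was -0.33 in SS against control (SE 0.0959, adjusted p = 0.0194, edgeR) and -0.28 in SS against SS+NAC (SE 0.0950, adjusted p = 0.037, edgeR). With the length offset these were -0.04 (adjusted p = 0.859) and 0.00 (adjusted p = 0.98). In SS against SS+NAC the log2 fold change ranged from -0.41 to -0.13 when each library was left out in turn. The call in SS against control was also lost without control replicate 1 (0.0735), control replicate 2 (0.124), SS replicate 1 (0.0628) or SS replicate 2 (0.102), over a range of 0.00166 to 1, and that in SS against SS+NAC held in 3 of 16 alternatives (0.00209 to 1).

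SPRED1, which binds neurofibromin and keeps RAS in its inactive state, lies on the plus strand of chromosome 15 (gene ID 161742, 38252836 to 38357249). Its level was 70.8 and 72.8 CPM in control, 57.2 and 53.4 CPM in SS, and 62.2 and 72.8 CPM in SS+NAC. As for SPRY4, both SS libraries were below the rest and the SS+NAC libraries reached those of control. The log2 fold change was -0.38 in SS against control (SE 0.0889, adjusted p = 0.0071, edgeR) and -0.29 in SS against SS+NAC (SE 0.0884, adjusted p = 0.0232, edgeR), and with the length offset 0.09 (adjusted p = 0.526) and 0.16 (adjusted p = 0.196). The call in SS against control was also lost without control replicate 2 (0.068) or SS replicate 2 (0.0661), over a range of 0.000335 to 1. That in SS against SS+NAC was kept in 3 of 6 fits with a library left out, where the log2 fold change ranged from -0.40 to -0.17 and the adjusted p reached 0.156. Neither SPRY4 (-0.05, adjusted p = 0.833, edgeR) nor SPRED1 (-0.09, adjusted p = 0.656, edgeR) passed in SS+NAC against control.

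**Figure D4:**
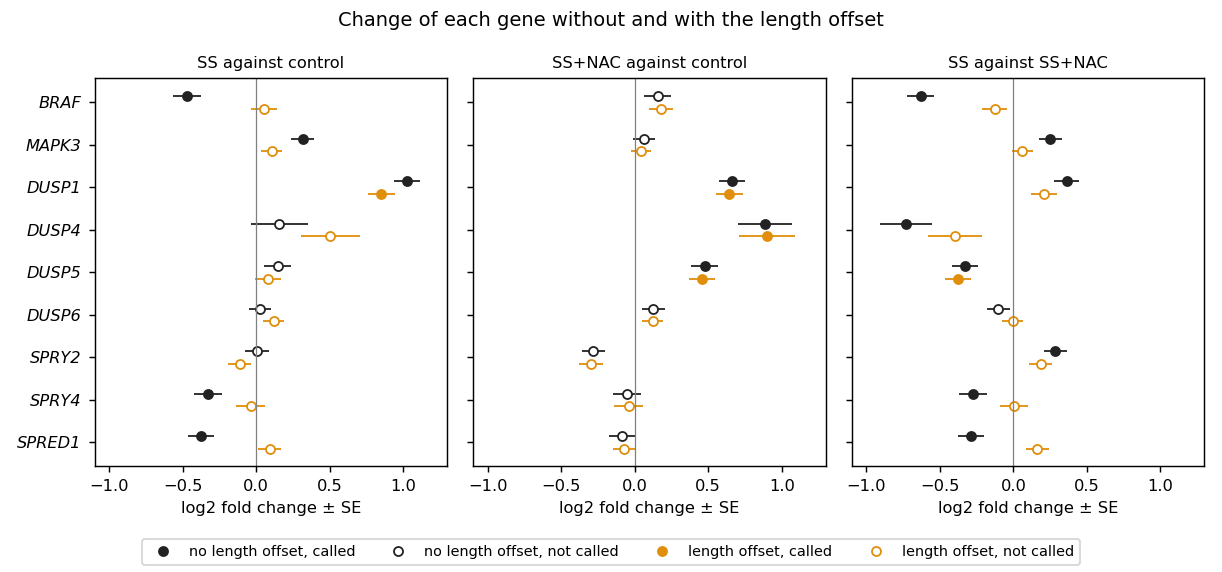
Log2 fold change with its SE for the 9 genes in the 3 comparisons, without (black) and with (orange) the length offset; filled points passed the edgeR test at an adjusted p of at most 0.05. With the offset DUSP1 alone passes in SS against control, DUSP1, DUSP4 and DUSP5 pass in SS+NAC against control, and DUSP5 alone passes in SS against SS+NAC.

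Across the 6 libraries the 9 genes did not move as one. On log2 CPM, Pearson's r over the 6 libraries, which share 3 treatments, was 0.96 for DUSP5 with DUSP6 and 0.81 for DUSP4 with DUSP5, but -0.95 for DUSP4 with SPRY2 and -0.98 for MAPK3 with SPRED1. DUSP1 had r of 0.24 with DUSP4, 0.47 with DUSP5 and 0.37 with DUSP6. Among 10697 genes of at least 5 CPM on average (10698 for DUSP4, which is below that mean), the genes of most similar pattern were ECM1 and RBM4B for DUSP1 (r = 0.996 for both), TGIF1 (0.995) and PDCD4 (0.994) for DUSP5, JDP2 (0.992) for DUSP4 beside a locus with no symbol, and RDH11 (0.990) for DUSP6. For the kinases these were KIAA0232 (0.999) and PLAG1 (0.998) with BRAF, and DNAJC17 (0.9996) and ATG4B (0.998) with MAPK3. For the inhibitors they were PPP1CC (0.997) and TSPAN5 (0.990) with SPRY2, EXOC7 (0.998) and LARP4B (0.996) with SPRY4, and DYRK3 (0.993) and MAP3K5 (0.992) with SPRED1. With so few libraries and so many genes searched, such values of r were found for each of the 9 genes, and they are descriptions.

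Of 70 other genes of the RAS-ERK pathway in 9 lists by role, 68 were tested. In SS against control 8 were higher, 26 lower and 34 not called (median log2 fold change -0.16), beside 18.6% higher and 21.4% lower of all genes (median 0.00). With the length offset 3 were higher and 5 lower (median -0.02), beside 9.35% of all genes in either direction. Without the offset the falls were most frequent among the RAS GTPase-activating proteins (7 of 8, such as RASAL2 at -0.65 and RASA1 at -0.61) and the adaptors and exchange factors (5 of 7, such as GAB1 at -0.84 and SOS1 at -0.80). With the offset 1 of the 8 GTPase-activating proteins was lower (median -0.09) and 4 of the 7 adaptors and exchange factors (median -0.31). Of the genes named, RASA1 (-0.43, adjusted p = 0.00675, edgeR) and SOS1 (-0.33, adjusted p = 0.0257, edgeR) still passed, whereas RASAL2 (adjusted p = 0.428) and GAB1 (adjusted p = 0.205) did not. Of the other MAP kinase phosphatases, DUSP2 (0.70) and DUSP14 (0.35) rose in SS, DUSP16 (-0.26) fell and 6 of 9 were not called. With the offset none of these 3 passed (adjusted p = 0.219, 0.792 and 0.767, edgeR), and DUSP8, named after its values were seen, did (0.43, adjusted p = 0.0197, edgeR). Of the other Sprouty and SPRED genes SPRED2 (-0.25) and SPRED3 (-0.43) fell, and neither passed with the offset (adjusted p = 0.831 and 0.449, edgeR). In further lists, 1 of 6 RAS GTPases was higher and 1 lower, as were 1 and 4 of 8 scaffolds and modulators, 0 and 2 of 8 kinases activated by ERK, and 3 and 3 of 13 transcription targets of ERK.

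In SS+NAC against control 3 of the 68 passed, all higher and all among the 13 tested transcription targets of ERK (median of the 68 -0.03), beside 1.36% higher and 0.657% lower of all genes (median 0.00). These were EGR1, FOS and, named after its values were seen, IER3, which are immediate early genes. EGR1 had 10.3 and 9.41 CPM in control, 25.6 and 18.5 CPM in SS, and 97.6 and 103.7 CPM in SS+NAC, so that the 3 groups did not overlap and SS+NAC was highest. Its log2 fold change was 1.17 in SS against control (SE 0.148, adjusted p = 0.000348, edgeR), 3.36 in SS+NAC against control (SE 0.139, adjusted p = 3.62e-07, edgeR) and -2.19 in SS against SS+NAC (SE 0.125, adjusted p = 1.16e-05, edgeR). FOS followed the same order, with 5.11 and 3.75 CPM in control, 10.7 and 8.91 CPM in SS, and 12.5 and 14.8 CPM in SS+NAC. DUSP1, itself an immediate early gene, had the opposite order of the treated groups on this scale, with SS above SS+NAC, a difference that did not pass with the length offset. In SS against SS+NAC 9 of the 68 were higher and 29 lower (median -0.11), beside 19.6% higher and 23.1% lower of all genes (median -0.03). With the offset 6 were higher and 6 lower (median 0.04), a share near the 14.4% of all genes called in either direction.

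**Figure D5:**
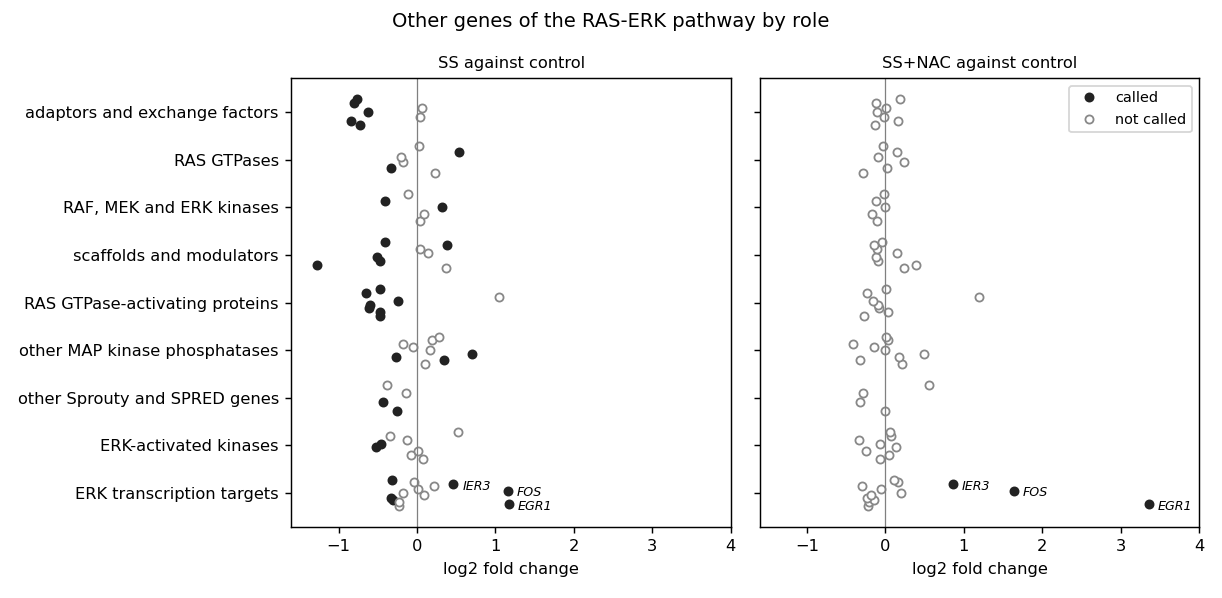
Log2 fold change of 68 other genes of the RAS-ERK pathway by role, in SS against control (left) and SS+NAC against control (right); each point is a gene, and filled points passed the edgeR test at an adjusted p of at most 0.05. In SS most called genes are lower, while in SS+NAC the called genes are EGR1, FOS and IER3, all higher.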

How the data were processed

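RNA-seq of KHM-5M cells was analysed in 3 groups of 2 libraries, grouped by the labelled treatment. The study calls the 2 libraries of a group biological replicates; nothing in the labels says how the cultures were separated, so p-values measure the spread between these libraries. The authors purified polyadenylated RNA, primed cDNA at random and sequenced single-end reads, which they filtered with SOAPnuke. The submitters' processing notes name HISAT2 2.0.4, Bowtie2 2.2.5 and RSEM 1.2.12; no strand setting is given in the sources used here, so reads of genes that overlap on opposite strands cannot be told apart. The deposited table holds, for each library, the expected counts that the authors estimated with RSEM. The deposited TPM values were computed by the authors with RSEM from those estimates and the effective transcript lengths. The deposited FPKM values, also from the authors' RSEM run, were used only to derive effective lengths. The effective length of a gene was that implied by its expected counts, its FPKM and the library totals, as a median over libraries. Other deposited columns hold log2 fold changes from the authors' own comparisons, named as made with DESeq2, and the authors' p-values and q-values for them. None of these was used, nor were 9 columns of group means. RSEM divides reads among genes that share sequence, and the counts of DUSP4, SPRY4 and SPRED1 were not whole numbers, which makes these 3 less certain.

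The expected counts were rounded to whole numbers, filtered with filterByExpr, which kept 14005 of 17687 genes, and scaled by TMM in edgeR 4.0.16 (R 4.3.3). One fit held all 6 libraries, and each pair of groups was compared by the quasi-likelihood test with Benjamini-Hochberg adjustment over all tested genes, at the threshold of 0.05. The biological coefficient of variation was 6.74%. The replicates of each group differed by more than sampling noise (chi-square per degree of freedom 3.05 in control, 7.12 in SS and 11.7 in SS+NAC). The length offset was a lowess curve (span 0.3) of each library's deviations on the log of effective length, with genes of unknown length set to the median. The fit was tested on simulated data. Alternatives were the size factors and the Wald test of DESeq2 1.42.0, other filters, the compared groups alone, a replicate block, the length offset, both together, Bonferroni adjustment, thinning to the smallest total and leaving out each library. Log2 CPM for correlations had a prior count of 2.

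All 9 genes were named. Of each role list, the rule named per comparison the 2 called genes with the largest rise and the 2 with the largest fall among those of at least 1 CPM in a compared group, of which some are given here. ARAF was named as a relative of BRAF, thyroid lineage genes as a check of the label, and for each gene up to 2 of most similar pattern. Some genes that these rules name are not reported here. The 9 genes and the lists were chosen with earlier results of these data known. Coordinates, spans and promoters are those of RefSeq on GRCh38.p14, and strands those of GENCODE release 29. Python 3.11.15 was used for tables (pandas 2.3.3 and numpy 2.4.6) and for plots (matplotlib 3.10.9).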

Additional observations from a re-analysis of the deposited data

How the results depend on the processing

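Each log2 fold change of the 9 genes in the 3 comparisons was recomputed under 16 alternatives, 432 values in all, of which 354 kept their side of the threshold (values that were not called could change sign), 69 lost the call with the same sign, 31 of these with the length offset or the Bonferroni adjustment, 1 gained it, and 8 lost it with the sign turned. The genes called in SS against control (5 of the 9 and 5609 of all) were 1 and 1309 with the length offset, 1 and 844 with the replicate block and the offset together, 1 and 220 with Bonferroni adjustment, and 2 to 5 and 3118 to 6579 when each library was left out in turn. In SS+NAC against control (3 and 282) the genes called were 3 and 281 with the offset, 1 and 200 with the block and offset, Bonferroni adjustment left 0 of the 9 and 40 of all genes, and with each library left out 1 to 4 and 98 to 1086. In SS against SS+NAC (8 and 5985) they were 1 and 2013 with the offset, 1 and 1345 with block and offset, 0 and 191 with Bonferroni adjustment, and 3 to 6 and 3250 to 6339 with each library left out. A group left with 1 library was assumed to vary like the others. The direction turned in SS against control for BRAF (0.053 with the offset, 0.054 with block and offset) and SPRED1 (0.091 and 0.093), and in SS against SS+NAC for SPRY4 (0.0045 and 0.0078) and SPRED1 (0.16 and 0.16), none of them called; the cause was not tested. The numbers do not pair the libraries (correlations of same-numbered deviations 0.11, -0.11 and -0.17); the replicate block alone gave 5, 3 and 6 called of the 9 and 4857, 211 and 5136 of all genes. DUSP4 had the lowest counts of the 9, at 62.22 to 167.0 in a library.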
